A study of Caenorhabditis elegans with 15 samples.

Results

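Genes for antimicrobial peptides and related small secreted defence proteins of Caenorhabditis elegans were followed across 5 exposure groups. They were chosen by name: every array probe set that carries a single gene symbol beginning with ilys, cnc, spp, thn, abf, fip or fipr, or a symbol from nlp-24 to nlp-34, with the probe set of the highest mean log2 signal kept for each gene. This gave 64 genes of the 17118 that have such a probe set. They comprise 18 saposin-like (spp), 13 fungus-induced or related (fip and fipr), 10 neuropeptide-like (nlp), 8 caenacin (cnc), 6 invertebrate-type lysozyme (ilys), 5 defensin-like antibacterial factor (abf) and 4 thaumatin-like (thn) genes. A further 13 probe sets with a matching symbol name several genes and were left out, and spp-5 and nlp-34 have no probe set under a single symbol here.

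RNA came from whole worms of the wildtype strain N2, collected on day 1 of adulthood after exposure through their whole life on NGM agar with Escherichia coli OP50 as food at 20 °C. The October and August groups received filtrate of Lake Stößensee in Berlin at 200% of its original AOBr content (AOBr usually stands for adsorbable organic bromine). The culture group received filtered batch culture of Microcystis aeruginosa, a cyanobacterium, at 40% of its original AOBr content, the Z-medium group was the control for the culture, and the water group was the control for both lake samples. Each group had 3 biological replicates, each on its own single-channel Affymetrix array, 15 arrays in all. The labels do not say whether Z-medium and water were filtered and lyophilised like the samples.

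These genes belong to the innate immune system of a worm that has no antibodies and no circulating immune cells. The epidermis makes the nlp and cnc peptides, and nlp-29 is best known for its induction by the fungus Drechmeria coniospora and by wounding through a p38 MAP kinase cascade, whereas cnc-2 depends on the TGF-beta ligand DBL-1. The fip genes were named for their induction by the same fungus. Saposin-like proteins (caenopores) permeabilise bacterial membranes, mainly in the intestine, lysozymes of the ilys family cut the bacterial cell wall, and abf peptides resemble the defensins of other animals. In whole worms, fewer cells of a type and less RNA per cell cannot be told apart.

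Of the 64 genes, 37 passed a filter on low signal (mean log2 signal of 5.86 or more, a linear signal of 57.9) and were tested. These were 12 of 18 spp, 8 of 13 fip and fipr, 9 of 10 nlp, 4 of 8 cnc, 2 of 6 ilys, 2 of 5 abf and none of the 4 thn genes. Of the 37, 30 lay above the filter level on every array. The other 27 genes had too little signal to be followed, among them some of the best studied members. The pharyngeal defensin-like gene abf-2 had mean signals of 40.3 ± 14.3 with October filtrate, 43.1 ± 10.1 with August filtrate, 31.5 ± 7.8 with the culture, 43.3 ± 11.8 in Z-medium and 32.6 ± 5.72 in water (SD, n = 3 each). The lysozyme gene ilys-3, which acts in the pharynx and gut, had signals of 67.0, 72.7 and 58.9 with October filtrate, 44.9, 85.1 and 70.5 with August filtrate, 23.8, 31.1 and 80.9 with the culture, 61.1, 64.3 and 64.9 in Z-medium and 47.0, 47.4 and 64.9 in water, so that all groups overlapped around the filter level. The thaumatin-like gene thn-1 lay between 1.79 and 56.2 and thn-3 between 20.8 and 87.8 over the 15 arrays. Among the 64 probe sets, 16 are of a design that may also bind related transcripts and 9 of a design shared by transcripts, so the neighbouring nlp-27 to nlp-31 genes, cnc-2 and cnc-3, and several fip genes may share signal. The shared design includes the probe sets of spp-1, spp-10 and nlp-33, and the ilys-5 probe set is of the design that may bind related transcripts.

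**Figure D1:**
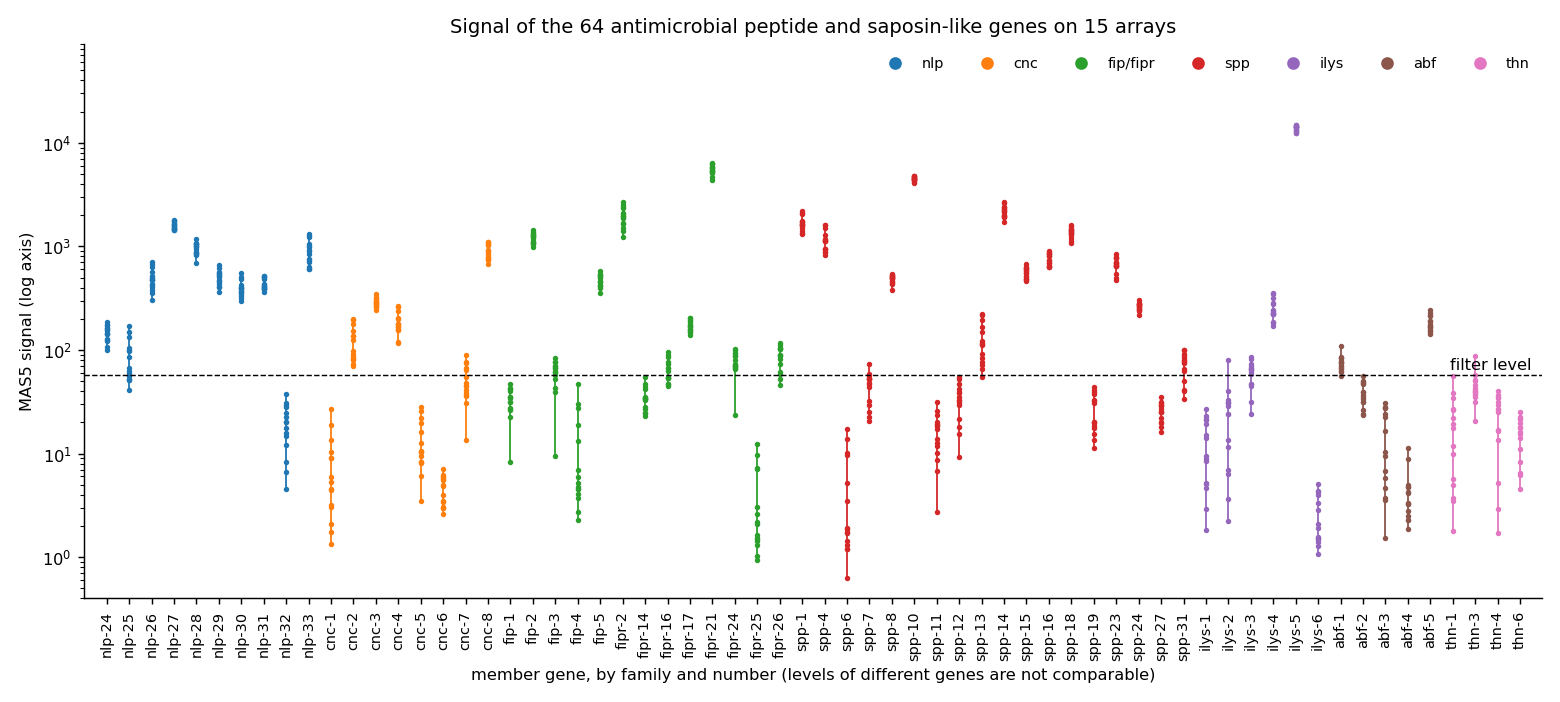
Signal of the 64 genes on the 15 arrays (log axis), ordered by family and number, with 1 point per array and the filter level of 57.9 as a dashed line. Colour marks the gene family, and the exposure groups are not distinguished. The 27 genes below the filter include all 4 thn genes, and for most genes above it the 15 points lie close together. Levels of different genes come from different probe sets and are not comparable with each other.

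The arrays of a group were not all alike. Median signals of the 15 arrays lay between 99.2 and 113, and on the first principal component the replicate 1 arrays of October, August, Z-medium and water lay at -28.9 to -21.8, all others at -0.20 or above. The culture arrays lay at 12, 26.7 and 36.1 for replicates 1, 2 and 3, so replicate 1 was the lowest of that group too. Across groups, 13 of the 37 genes were higher and 0 lower in replicate 1 than in replicates 2 and 3 past the test in limma. Of all 13529 probe sets, 1455 were higher and 996 lower (18.1% in either direction). Among the 13, the log2 differences were 0.66 for spp-13, 0.67 for nlp-25, 0.52 for cnc-4, 0.47 for ilys-4 and 0.39 for fipr-2.

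Of the 37 genes, spp-1 alone passed the test, in 1 of the 6 comparisons. With the culture against Z-medium it rose, 0 fell and 36 did not pass, where 1.54% of all 13529 probe sets passed (0.355% higher and 1.19% lower) by limma with Benjamini-Hochberg adjustment over all of them. At an unadjusted p under 0.05 in limma, 2 genes were higher (5.14% of all probe sets) and 8 lower (10.1% of all). The 3 culture arrays lay above the 3 Z-medium arrays for 2 genes (7.85% of all probe sets) and below them for 11 (11.3% of all). The median log2 change of the 37 was -0.08, against 0.00 over all probe sets tested, with 14 positive and 23 negative values (50.8% positive over all). After quantile normalization 18 were positive and 19 negative, and after centring each array on its median 20 were positive and 17 negative, with a median of 0.0283 against 0.114 over all.

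With October filtrate against water, 0 of the 37 passed, as did 0% of all probe sets, and 1 had an unadjusted p under 0.05 in limma (2.11% of all). The arrays did not overlap for 4 higher and 1 lower gene (3.75% and 3.81% of all), and the median log2 change was 0.02, with 22 positive and 15 negative values (51.1% positive over all). August filtrate against water gave 0 of 37 past the test, where 0.00739% of all probe sets passed, and 2 at an unadjusted p under 0.05 (3.05% of all). Here 3 genes were higher without overlap and 0 lower (3.33% and 3.87% of all), and the median log2 change was -0.03, with 17 positive and 20 negative values (48.5% positive over all). Both lake comparisons share the 3 water arrays.

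**Figure D2:**
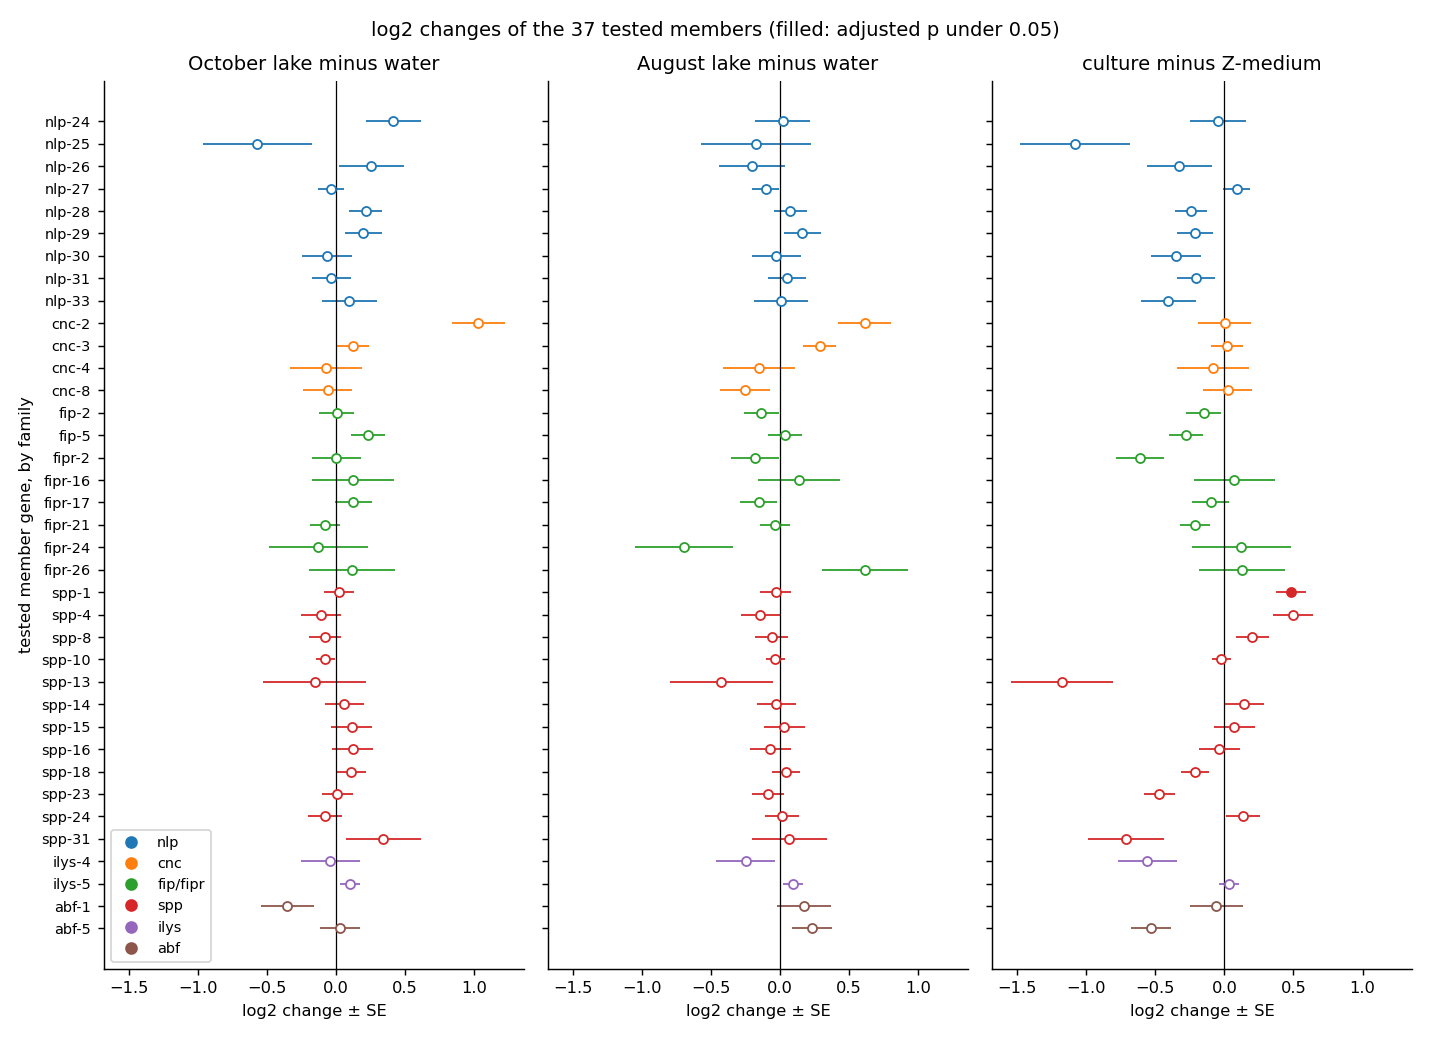
Log2 change of the 37 tested genes with its standard error in limma, for October filtrate against water, August filtrate against water and the culture against Z-medium, with filled points at an adjusted p under 0.05. Only spp-1 with the culture is filled, and cnc-2 has the largest positive change in October.

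The saposin-like genes held both directions with the culture. Signals of spp-1, which encodes a pore-forming antibacterial protein of the intestine, were 2117, 2174 and 2056 with the culture, against 1753, 1317 and 1497 in Z-medium. They were 1651, 1563 and 1604 with October filtrate and 1706, 1344 and 1604 with August filtrate, against 1702, 1409 and 1644 in water. The 3 culture arrays were the highest of all 15, and the lake groups overlapped water. The rise with the culture was 0.48 ± 0.11 on the log2 scale (1.40-fold, 95% interval 0.25 to 0.72, adjusted p = 0.0386 in limma). This call was lost when any 1 of the 6 arrays other than Z-medium replicate 1 was left out, with an adjusted p of up to 0.139, and it held in 6 of 16 alternative settings in all. The spp-1 probe set tested is of the design shared by transcripts, so its signal may not come from spp-1 alone. A second spp-1 probe set had a mean signal of 20.1, below the filter.

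A parallel pattern was measured for spp-4, without passing the test. Its signals were 1621, 1602 and 1494 with the culture, against 1137, 1297 and 937 in Z-medium. They were 953, 1137 and 877 with October filtrate and 949.9, 1118 and 835 with August filtrate, against 1177, 886 and 1144 in water. Again the 3 culture arrays were above the other 12, and the change was 0.50 ± 0.14 on the log2 scale (1.41-fold higher, adjusted p = 0.101 in limma). Over all probe sets, 1.52% had their 3 culture arrays above the other 12. After centring every array on its median log2 signal the adjusted p of spp-4 was 0.0338, with the median change of all probe sets then at 0.114. It passed in 2 of 16 alternatives and in 0 of the 6 that left out 1 array, with an adjusted p of up to 0.251.

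The opposite direction was measured for spp-23, spp-13 and spp-31, none of which passed. Signals of spp-23 were 539.9, 490.3 and 469 with the culture and 772, 640.3 and 668 in Z-medium, with a log2 change of -0.47 ± 0.11 (adjusted p = 0.051 in limma). In the lake comparison spp-23 had 697, 839 and 678 with October filtrate, 765, 651 and 649.6 with August filtrate and 795, 691 and 708 in water, and these 3 groups overlapped. For spp-13 the signals were 54.4, 66.2 and 71.8 with the culture and 217, 123.0 and 111 in Z-medium, a log2 change of -1.17 ± 0.37 (adjusted p = 0.133). The 3 culture arrays of both genes lay below all other 12, as for 3.61% of all probe sets. For spp-13 the replicate 1 array was the highest of its group in all groups but the culture: its signals were 166, 115 and 114 with October filtrate, 195, 84.0 and 76.0 with August filtrate and 223, 148 and 91.6 in water. Signals of spp-31 were 39.8, 33.5 and 50.4 with the culture, all below the filter level, and 92.1, 41.5 and 77.1 in Z-medium, and the groups overlapped (log2 change -0.71 ± 0.27, adjusted p = 0.228). In the lake comparison spp-31 had 100.2, 101 and 79.98 with October filtrate, 66.1, 87.4 and 78.9 with August filtrate and 74.8, 62.9 and 84.2 in water, with overlap among the 3 groups.

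The remaining spp genes had smaller changes with the culture. Signals of spp-10 were 4436, 4746 and 4489 with the culture and 4553, 4784 and 4558 in Z-medium, and 4148, 4427 and 4339 with October filtrate, 4412, 4340.4 and 4534 with August filtrate and 4831, 4103 and 4715 in water. The culture change of spp-10 on this probe set was -0.02 ± 0.07 on the log2 scale, with a 95% interval of -0.17 to 0.12, and its arrays overlapped in every comparison. On its other probe sets, with mean signals of 3630 and 1420, the culture changes were lower, at -0.17 ± 0.10 and -0.23 ± 0.11. Neither passed (adjusted p = 0.411 and 0.328 in limma). Changes of spp-8, spp-14, spp-15, spp-16, spp-18 and spp-24 with the culture lay between -0.21 for spp-18 and 0.20 for spp-8 on the log2 scale. Over the 12 spp genes tested the median log2 change with the culture was 0.02, with 6 positive and 6 negative values, or 8 positive and 4 negative after median centring. With October filtrate the 12 lay between -0.15 and 0.34, and with August filtrate between -0.42 and 0.07.

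**Figure D3:**
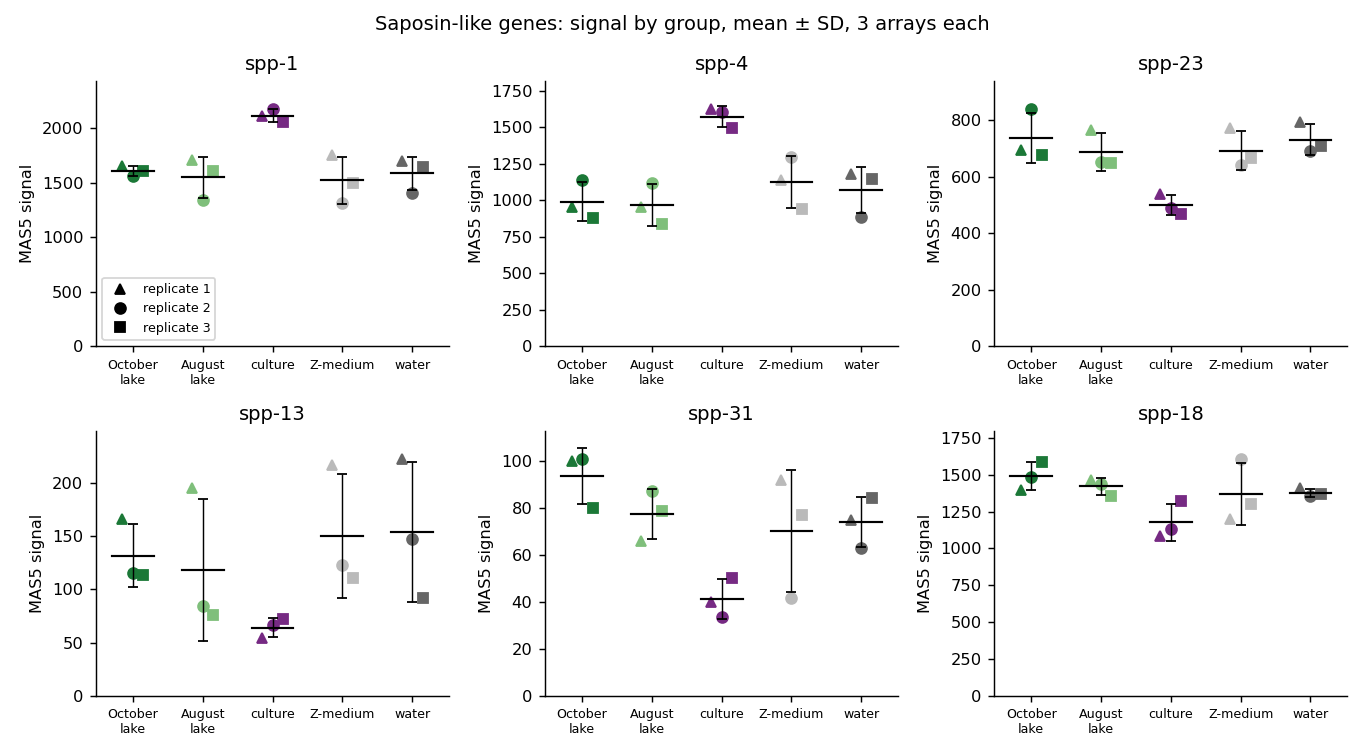
Signal of 6 saposin-like genes in each group, with 1 point per array (triangle, circle and square for replicates 1, 2 and 3) and the mean ± SD. The culture points are the highest for spp-1 and spp-4 and the lowest for spp-23 and spp-13, and the replicate 1 points of spp-13 stand high in every group but the culture.

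Among the epidermal peptide genes the largest October change was that of cnc-2, although it did not pass the test over all probe sets. Its signals were 194, 199 and 177 with October filtrate and 138, 153 and 136 with August filtrate, against 70.6, 125 and 90.8 in water. They were 84.1, 80.4 and 86.8 with the culture, against 73.1, 82.6 and 97.0 in Z-medium. The 3 October arrays were the highest of all 15, the 3 August arrays lay above all water arrays, and the culture overlapped Z-medium. Over all probe sets, 0.111% had their 3 October arrays above the other 12. The log2 change was 1.03 ± 0.19 with October filtrate (2.04-fold, 95% interval 0.62 to 1.44), with an unadjusted p of 7.30e-05 that ranked 2 of 13529 and an adjusted p of 0.494 in limma. It was 0.61 ± 0.19 with August filtrate (1.53-fold, adjusted p = 1.00) and 0.00 ± 0.19 with the culture (95% interval -0.41 to 0.41). Over the alternatives the October change was 0.82 to 1.25, with an adjusted p between 0.102 and 1.

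The other 3 cnc genes tested had smaller changes than cnc-2 with both lake filtrates. Signals of cnc-3, a neighbour of cnc-2 on chromosome V, were 290.5, 322 and 345 with August filtrate, against 242, 282 and 261 in water, where the arrays did not overlap (log2 change 0.29 ± 0.12, adjusted p = 1.00). With October filtrate cnc-3 had 280.5, 274 and 299, overlapping water. For cnc-4, also in that run of genes, the signals were 257, 159 and 178 with October filtrate, 238, 166 and 155 with August filtrate, 177, 166 and 119 with the culture, 202, 117 and 175 in Z-medium and 268, 157 and 201 in water. In all 5 groups the replicate 1 array of cnc-4 was the highest of its group, and the groups overlapped. On chromosome X, cnc-8 had 932 ± 169 with October filtrate, 818 ± 183 with August filtrate, 889 ± 177 with the culture, 870.2 ± 139 in Z-medium and 964 ± 101 in water (SD, n = 3 each), and its largest log2 change in the 3 main comparisons was -0.25 ± 0.18. In the gene order of the RefSeq annotation (assembly WBcel235) cnc-1, cnc-5, cnc-4, cnc-3 and cnc-2 follow each other with no protein-coding gene between them, and the October changes of the tested neighbours were 0.12 ± 0.12 for cnc-3 and -0.07 ± 0.26 for cnc-4 on the log2 scale. Both cnc-1 and cnc-5 lay below the filter.

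None of the 9 nlp genes tested passed in any comparison. The most studied, nlp-29, had signals of 658, 506 and 553 with October filtrate and 613, 536 and 517 with August filtrate, against 569, 452 and 473 in water. It had 430.4, 403 and 366 with the culture, against 527, 407 and 459.7 in Z-medium. October and August each overlapped water, the culture overlapped Z-medium, and the log2 changes were 0.20 ± 0.13 with October filtrate (95% interval -0.08 to 0.48), 0.16 ± 0.13 with August filtrate (-0.12 to 0.44) and -0.21 ± 0.13 with the culture (-0.49 to 0.07). When 1 array was left out they lay between 0.09 and 0.30 with October filtrate, 0.09 and 0.26 with August filtrate and -0.30 and -0.12 with the culture. For nlp-31, whose peptide is antifungal in vitro, the signals were 515, 395 and 402 with October filtrate and 489, 516 and 386 with August filtrate, against 507, 419.6 and 413 in water. They were 399, 364 and 391 with the culture, against 497, 403 and 434 in Z-medium. All nlp-31 values of the culture lay below those of Z-medium, with a log2 change of -0.20 ± 0.14 (adjusted p = 0.502).

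Over the 9 nlp genes tested, 8 had a negative log2 change with the culture, with a median of -0.24 (7 of 9 after quantile normalization or median centring). For 4 of the 9 the culture arrays lay wholly below Z-medium. Over all probe sets 50.8% of changes were positive, and for 11.3% the culture arrays lay wholly below Z-medium. The adjoining nlp-27 to nlp-31 may share signal. Of the 9 genes, 6 were higher in replicate 1 past the test, as were 1455 of all 13529 probe sets. Without the replicate 1 arrays 8 of 9 had a negative culture change, with a median of -0.17. The largest was that of nlp-25, with signals of 40.6, 50.8 and 51.5 with the culture, all below the filter level, and also below all other 12 arrays, against 149, 101 and 67.0 in Z-medium (log2 change -1.08 ± 0.40, adjusted p = 0.205). In the lake comparison nlp-25 had 98.7, 60.3 and 52.4 with October filtrate, 133, 63.0 and 84.8 with August filtrate and 172, 56.04 and 105 in water, with broad overlap. The October log2 change of nlp-25 was -0.57 ± 0.40, or -0.18 without water replicate 1 and -0.99 without water replicate 2. Signals of nlp-33 were 608, 631 and 599.9 with the culture, below all other 12 arrays, against 1018, 702 and 748 in Z-medium (log2 change -0.40 ± 0.20, adjusted p = 0.347). The exception in sign was nlp-27, at 1761, 1773 and 1495 with the culture and 1589, 1475 and 1659 in Z-medium, with 1677, 1544 and 1501 with October filtrate, 1599, 1446 and 1458 with August filtrate and 1809, 1610.0 and 1437 in water. It adjoins nlp-28, nlp-29, nlp-30 and nlp-31 on chromosome V, and the culture changes of these 5 neighbours were 0.09, -0.24, -0.21, -0.35 and -0.20 on the log2 scale in the order nlp-27 to nlp-31, none past the test. With October filtrate nlp-28 had 1053, 1188 and 1043, against 996, 830.1 and 1011 in water, without overlap (log2 change 0.21 ± 0.12, adjusted p = 1.00). For nlp-24, a gene for opioid-like peptides, the October signals were 155, 175 and 187, against 173, 101 and 122.5 in water, and the groups overlapped through water replicate 1 (log2 change 0.42 ± 0.20, adjusted p = 1.00). Its log2 change was 0.63 without water replicate 1 and 0.24 without water replicate 2.

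**Figure D4:**
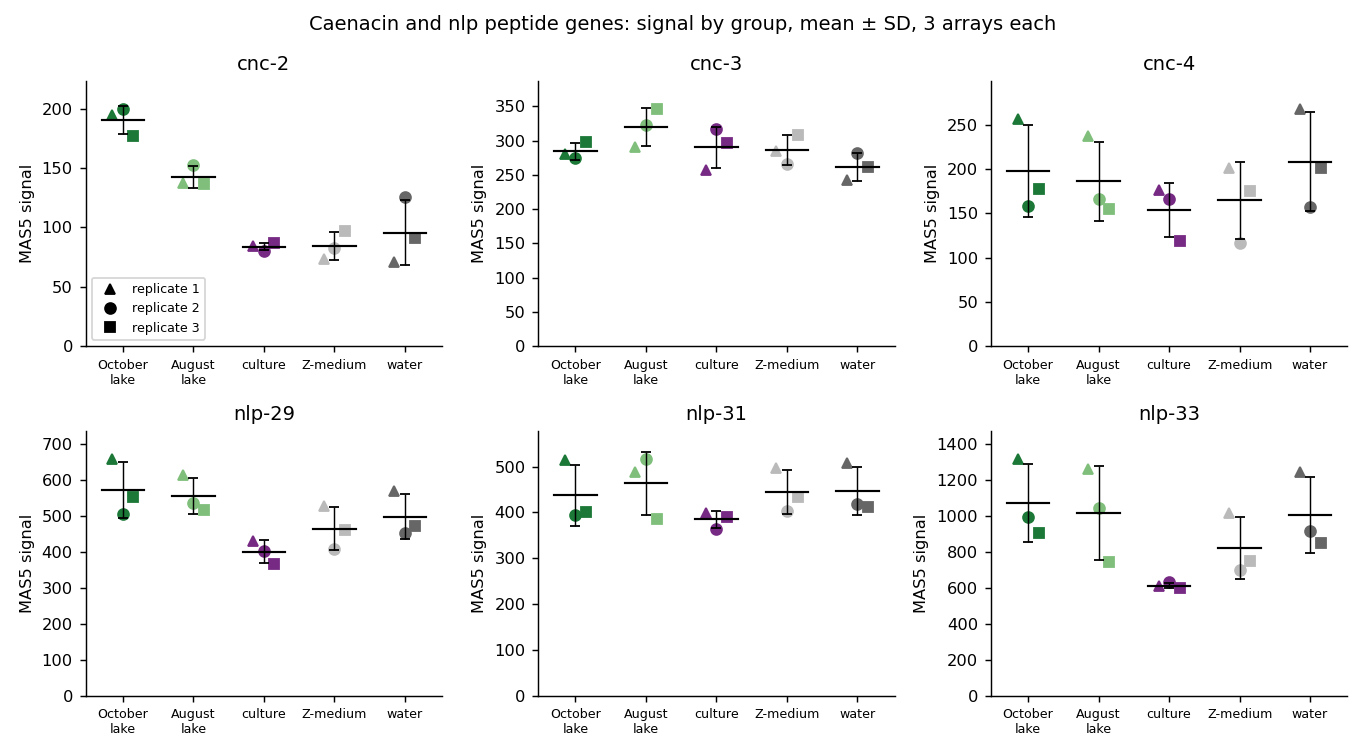
Signal of 6 genes for epidermal peptides in each group, drawn as for the saposin-like genes. The October points of cnc-2 stand above all others, at 177 to 199, and the culture points of nlp-33 below all others.

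None of the 8 fip and fipr genes tested passed with the culture, where 5 of their log2 changes were negative (4 after quantile normalization or median centring) and the median was -0.12. Signals of fipr-2 were 1633, 1393 and 1236 with the culture, against 2406, 2109.9 and 1977 in Z-medium, with no overlap (log2 change -0.61 ± 0.18, 1.53-fold lower, adjusted p = 0.0992 in limma). They were 2337, 2048 and 1977 with October filtrate and 2537, 1677 and 1511 with August filtrate, against 2655, 1891 and 1871 in water, where the groups overlapped. Without the 5 replicate 1 arrays the culture change of fipr-2 was -0.64, with an adjusted p of 0.00374. It passed in 2 of 16 alternatives and in 0 of the 6 that left out 1 array, with an adjusted p of up to 0.329. Signals of fip-5 were 417, 353 and 412 with the culture, against 518, 462 and 453 in Z-medium, also without overlap (log2 change -0.28 ± 0.12, adjusted p = 0.297). With October filtrate fip-5 had 575, 526 and 529, against 511, 423 and 457 in water, and the October arrays were all higher (log2 change 0.23 ± 0.12, adjusted p = 1.00). On chromosome X fip-5 is followed by fipr-21 and cnc-8, and fipr-21 had 5805, 4632 and 4369 with the culture, 6270.4, 5755 and 5069 in Z-medium, 5891, 5229.6 and 5381 with October filtrate, 6228, 5335 and 5456 with August filtrate and 6315, 5756 and 5383 in water. The fipr-21 arrays overlapped in every comparison, with a culture change of -0.21 ± 0.11 on the log2 scale.

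The largest fipr changes with August filtrate ran in both directions and lay next to the filter level. Signals of fipr-26 were 104, 111 and 115 with August filtrate, against 73.9, 81.5 and 61.4 in water, with no overlap (log2 change 0.61 ± 0.31, adjusted p = 1.00). In the other groups fipr-26 had 103, 88.5 and 52.0 with October filtrate, 105, 58.9 and 88.3 with the culture and 89.2, 102 and 45.9 in Z-medium, each overlapping water. Signals of fipr-24 were 79.8, 69.7 and 23.6 with August filtrate, against 68.1, 87.6 and 93.8 in water, a log2 change of -0.70 ± 0.36 that was -0.14 without August replicate 3. They were 73.9, 87.9 and 66.0 with October filtrate, 99.4, 70.1 and 91.8 with the culture and 67.4, 71.8 and 103 in Z-medium, all above that 1 August array.

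Of the defensin-like genes, abf-5 had its highest group mean in Z-medium. Its signals were 163, 149 and 153 with the culture, against 219, 243 and 213 in Z-medium. They were 189, 176 and 143 with October filtrate and 228, 188 and 169 with August filtrate, against 157, 166 and 172 in water. The culture arrays all lay below the Z-medium arrays (log2 change -0.53 ± 0.15, 1.45-fold lower, adjusted p = 0.082 in limma). The Z-medium arrays all lay above the water arrays (log2 change 0.45 ± 0.15, unadjusted p = 0.00763 and adjusted p = 1.00 in limma), and the culture mean of 155 ± 7.12 stood beside a water mean of 165 ± 7.41 (SD, n = 3 each). For abf-1, whose neighbour on chromosome I is abf-2, signals were 67.2, 56.1 and 60.9 with October filtrate, 75.5, 82.99 and 109 with August filtrate and 83.9, 74.8 and 76.1 in water, the October arrays below both (log2 change -0.35 ± 0.19 against water and -0.52 ± 0.19 against August, adjusted p = 1.00 and 1.00). In the culture comparison abf-1 had 70.5, 63.3 and 78.4 with the culture and 86.3, 65.2 and 70.2 in Z-medium, with overlap.

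Of the 2 lysozyme genes tested, neither passed in any comparison. Signals of ilys-4 were 224, 172 and 186 with the culture, against 356, 281 and 229 in Z-medium, with no overlap (log2 change -0.56 ± 0.21, adjusted p = 0.228 in limma). They were 319.9, 237 and 225 with October filtrate and 276, 220.5 and 182 with August filtrate, against 346, 221 and 243 in water, with the replicate 1 array the highest of each of these groups and of the culture and Z-medium groups too. Signals of ilys-5 were 12575, 14569 and 13406 with the culture, against 12867, 12375 and 14340.4 in Z-medium, a log2 change of 0.04 ± 0.07 with a 95% interval of -0.12 to 0.19. They were 14499.6, 14774 and 14345 with October filtrate, 14305, 14948 and 14093 with August filtrate and 12955, 14184 and 13467 in water, and the October arrays did not overlap water (log2 change 0.10 ± 0.07). On the other ilys-5 probe sets, with mean signals of 13600 and 13000, the October changes were -0.0074 ± 0.0839 and 0.0712 ± 0.0826. The neighbouring ilys-1, ilys-2 and ilys-3 genes on chromosome IV were all below the filter.

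**Figure D5:**
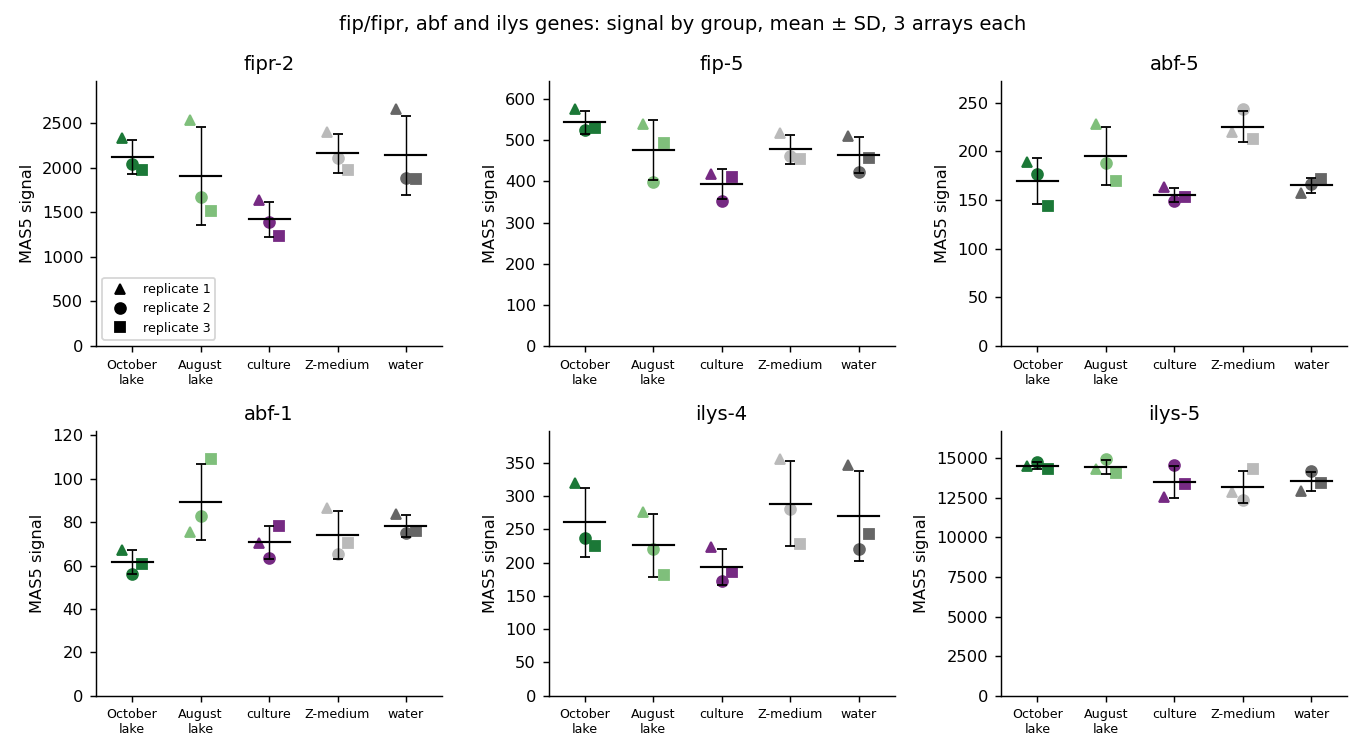
Signal of 6 fungus-induced, defensin-like and lysozyme genes in each group, drawn as for the saposin-like genes. The culture points lie below the Z-medium points for fipr-2, fip-5, abf-5 and ilys-4, and the Z-medium points of abf-5 stand above the water points.

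Differences between the exposures were tested directly. October against August gave 0 of 37 genes past the test, where 0.0148% of all probe sets passed, with 1 higher and 1 lower at an unadjusted p under 0.05 in limma (2.59% of all). The 1 higher was cnc-2 (log2 change 0.42 ± 0.19, adjusted p = 1.00) and the 1 lower abf-1. Z-medium against water gave 0 of 37, where 0.0222% of all passed, and abf-5 was the 1 gene at an unadjusted p under 0.05 (2.34% of all). The next largest change there was that of cnc-4 (-0.34 ± 0.26 on the log2 scale), which lay between -0.53 and -0.11 when 1 array was left out. The culture change minus the mean lake change gave 0 of 37 past the test (0.266% of all) and 10 at an unadjusted p under 0.05, 2 positive and 8 negative (8.54% of all). It was -0.92 ± 0.36 for spp-31, -0.88 ± 0.49 for spp-13, -0.82 ± 0.25 for cnc-2, 0.62 ± 0.19 for spp-4 and 0.49 ± 0.15 for spp-1 on the log2 scale. Of these, spp-13 was not among the 10 (unadjusted p = 0.0909 in limma). The smallest adjusted p of the 37 genes in limma was 0.27, for abf-5 (-0.67 ± 0.19 on the log2 scale). Of the 5 group means, that of the culture was the lowest for 17 of the 37 genes (31.9% of all probe sets) and the highest for 6 (31.9% of all). That of October was the highest for 14 (16.8% of all) and the lowest for 2 (16.2% of all).

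Of the 8 genes lower with the culture at an unadjusted p under 0.05, 4 were among the 13 genes higher in replicate 1 (fipr-2, ilys-4, nlp-25 and spp-13), and of the 2 higher (spp-1 and spp-4), 0 were. The part of replicate 1 in the culture values was tested by leaving those 5 arrays out: spp-1 then rose with a log2 change of 0.59 and an adjusted p of 0.0146 in limma, fipr-2 fell, and the other 35 did not pass. Over all probe sets, 3.95% passed in that fit. The log2 change was then -0.76 for spp-13, -0.69 for nlp-25, -0.50 for ilys-4, -0.45 for spp-23 and -0.24 for nlp-33, and that of cnc-2 with October filtrate was 0.82 (adjusted p = 1.00 in limma).

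Marker genes of tissues were read on the same arrays. The summed signal of 8 pharynx markers was 3638 to 4294 with the culture and 4515 to 5683 in Z-medium, with 0 of 7 tested past the test. The summed signal of 9 epidermis markers was 24601 to 36027 with the culture and 31734 to 36567 in Z-medium, with 7 of 9 log2 changes negative, a median of -0.38 and 0 past the test. For 9 intestine markers the sums overlapped at 30710 to 37557 with the culture and 33112 to 35643 in Z-medium, and 1 of 8 tested fell, the intermediate filament gene ifb-2 (-0.56 ± 0.13 on the log2 scale, adjusted p = 0.0492 in limma). For 8 sperm markers the sums were 35086 to 57606 with the culture and 44713 to 58857 in Z-medium, with all 7 tested negative and 0 past the test, and for 9 germline and oocyte markers 51829 to 55742 with the culture and 45073 to 52166 in Z-medium. Body wall muscle markers, 6 in number, summed to 21448 to 27960 with the culture and 23746 to 26123 in Z-medium. No marker was listed at 0, and the part of tissue composition in the changes of the epidermal and intestinal genes was not tested.

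Genes of the pathways that control these peptides were read from the same fit. With October filtrate and with August filtrate 0 genes passed in each of 6 lists: p38 MAP kinase cascade (8 tested), epidermal peptide signalling (11), DBL-1 signalling (9), insulin and DAF-16 signalling (10), intestinal immune transcription factors (12) and osmotic response (6), where 0% and 0.00739% of all probe sets passed. At an unadjusted p under 0.05 in limma, 1 gene of the DBL-1 list was higher with October filtrate, lon-2, which encodes a glypican that restrains DBL-1 (0.53 ± 0.19 on the log2 scale), and 0 genes of the other 5 lists were, nor any with August filtrate. With the culture, where 1.54% of all passed, 1 gene over the 6 lists did: ptr-23, a patched-related gene of the osmotic response list, fell by 0.79 on the log2 scale (SE 0.17, adjusted p = 0.0278 in limma). The median log2 change with the culture was -0.01 for the p38 list, -0.12 for epidermal peptide signalling, -0.11 for DBL-1 signalling, 0.11 for insulin signalling and -0.26 for the intestinal transcription factors, of which 10 of 12 were negative. In that list pqm-1 had -0.49 ± 0.14 and nhr-8 -0.65 ± 0.21, and in the DBL-1 list the Smad gene sma-3 had -0.45 ± 0.17, none past the test.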

How the data were processed

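Transcript levels in 15 samples, 3 in each of 5 groups named in the labels, were measured on Affymetrix expression arrays. The deposited values are linear signal intensity per probe set, made per the submitters' processing notes with MAS5 in Affymetrix Expression Console 1.2.0.20. Every array had been scaled to a trimmed mean of 500.123 to 500.137. The array's genome build is not given in the sources used here, and raw scans were not analysed here. The precision is limited by 3 arrays per group.

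Signals were log2-transformed here without an offset, control probe sets (77) were left out, and the 13529 probe sets of 22625 whose mean log2 signal reached the 40th percentile were tested. All 15 arrays entered 1 limma model with a mean per group and 10 residual degrees of freedom (limma 3.58.1 in R 4.3.3, with eBayes moderated along the intensity trend). Contrasts were adjusted by Benjamini-Hochberg over all probe sets tested and called at an adjusted p under 0.05. Errors of log2 changes are standard errors, and errors of signals are SD. With 3 arrays against 3, an exact permutation test cannot give a p below 0.1. The model was tested on simulated data with known changes and independent noise on each array. That simulation held no difference of the replicate 1 arrays, so it cannot show how the model performs where such a difference is present.

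Genes are named by rule: those past the test, the largest changes per comparison, the highest mean signal of a family and textbook members, plus others after their values were seen. Symbols came from the platform annotation, where 63 of the 64 genes matched a RefSeq gene ID. The members and lists were chosen with earlier results of these data known. Same-numbered arrays deviated together from their group means at correlations of 0.20 to 0.53 for August and water, 0.21 to 0.46 for October and August, and 0.21 to 0.56 for Z-medium and water. For October and water the correlations were 0.06 to 0.47, and for the culture and Z-medium -0.03 to 0.36. The main model held no term for the replicate number, so its tests were unpaired in every comparison. Pairing entered only in the alternative with the replicate block. Alternatives varied the block, the replicate 1 arrays, normalization, centring, filter, offset, trend, probe set choice and the arrays in the fit.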

Additional observations from a re-analysis of the deposited data

How the results depend on the processing

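In the October, August, October against August and Z-medium against water comparisons, 0 of the tested genes passed under every alternative run, and the replicate block, which pairs same-numbered arrays, changed no call of a member there. Over those runs 0% to 0.037% of all probe sets passed. The median log2 change of the members over fits that left out 1 array was -0.05 to 0.09 with October filtrate, -0.10 to 0.06 with August filtrate, 0.02 to 0.12 for October against August and -0.07 to 0.05 for Z-medium against water. The culture comparison depended on the setting. Its 1 call became 9 with the replicate block (spp-1 and spp-4 higher, fipr-2, nlp-33, spp-23, ilys-4, abf-5, spp-13 and nlp-25 lower). Over all probe sets the block gave 1245 calls (9.2%) against 209. The labels link same-numbered arrays by the number alone. Those of the culture and Z-medium deviated from their group means at correlations of 0.36, -0.03 and 0.26 for replicates 1, 2 and 3. The replicate 1 arrays of October, August, Z-medium and water also lay together on the first principal component. The count became 2 without the replicate 1 arrays (3.95% of all probe sets) and 2 with median centring (spp-1 and spp-4 higher, 1.24% of all). It was 0 with quantile normalization (1.32% of all), with no filter (0.696%) and with no intensity trend (1.06%). It was also 0 with the mean of a gene's probe sets (1.54%) and with the groups of the comparison alone (0.865%). Fits that left out 1 array gave 0 to 1 (0.658% to 1.69% of all). The median log2 change of the members with the culture, -0.08, was 0.0283 with median centring, which moved the median of all probe sets to 0.114, -0.212 with no filter, -0.208 with a filter at the 20th percentile, and -0.151 to -0.0855 when 1 array was left out. For the culture change minus the mean lake change, the count of 0 became 2 with the replicate block (spp-1 higher, fipr-2 lower). With that block 3.55% of all probe sets passed. In each fit without 1 array the count was 0 (0.155% to 0.333% of all). The median there, -0.19, was -0.0841 with median centring and -0.287 with no filter, and -0.215 to -0.13 when 1 array was left out. The causes were not tested.

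Of the log2 changes of single genes, 14 values for spp-1, nlp-31 and cnc-2 changed sign. When 1 array was left out, the October change of nlp-31 (-0.03) lay between -0.157 and 0.0608 and that of spp-1 (0.02) between -0.0591 and 0.0772. The August change of spp-1 (-0.03) lay between -0.116 and 0.0665 and that of nlp-31 (0.05) between -0.0336 and 0.176, and the culture change of cnc-2 (0.00) between -0.096 and 0.108. With the mean of both spp-1 probe sets, 1 of them below the filter, the spp-1 change was -0.674 with August filtrate and 0.867 with the culture (0.48). The culture change of cnc-2 was also -0.0994 without the replicate 1 arrays and -0.000957 with an offset of 32 added to the signal before the log. The deposited signal comes without detection calls here, so the background in values next to the filter level is unknown.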
